A study of Mus musculus with 30 samples.

Results

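The proteasome subunit genes of the neonatal mouse thymus were taken as all rows of the deposited expression table whose symbol begins with Psma, Psmb, Psmc or Psmd followed by a number, together with Psme1 to Psme4. The rule found 43 of 18847 genes. It used names only and no measured value. RNA sequencing had been done on 5 stromal populations sorted from B6.SJL mice of mixed sex, which were injected on postnatal day 1 with aflibercept (VEGF-Trap, a soluble decoy for VEGF-A, called Trap here) or with an hFC control antibody, and whose thymi were taken on day 3. All cells had been depleted of CD45-positive cells and gated as negative for CD3, CD4, CD8, CD45 and Ter119. EpCAM-positive cells with high Ly51 were sorted as cortical thymic epithelium (cTEC) and those with low or no Ly51 as medullary thymic epithelium (mTEC), CD31-positive cells as endothelium (Endo), and cells negative for EpCAM and CD31 as CD140a-positive or CD146-positive mesenchyme. Each population had 2 control and 4 Trap libraries, 30 in all. Whether a library is 1 animal or a pool is not stated, and the p-values describe variation among libraries, which may include technical variation.

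The proteasome is the barrel-shaped protease that degrades ubiquitin-tagged proteins and cuts the peptides shown on MHC class I molecules. Its core is built of outer rings of α subunits (Psma genes) and inner rings of β subunits (Psmb genes), and only β1 (Psmb6), β2 (Psmb7) and β5 (Psmb5) cut. In cells exposed to interferon these are replaced by β1i (Psmb9), β2i (Psmb10) and β5i (Psmb8), which gives the immunoproteasome. Cortical thymic epithelium has a further β5 subunit, β5t (Psmb11), which gives the thymoproteasome, known for its part in the positive selection of CD8 T cells. The 19S cap, made of ATPases (Psmc genes) and other subunits (Psmd genes), unfolds the substrates. PA28αβ (Psme1 and Psme2), PA28γ (Psme3) and PA200 (Psme4) are alternative caps.

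Short stretches before the RefSeq transcript starts of 3 catalytic genes show motifs of known regulators. They were chosen for FOXN1 (the master factor of thymic epithelium) and NFE2L1 (which raises constitutive subunits when the proteasome is short). Capitals mark the motif, and each stretch is from build GRCm38.p6, on the strand of its gene.
Psmb11, chr14:54625060-54625089 (+), FOXN1-type core at -239: gctgacaggtgGCGTCttcagagtgtagga
Psmb11, chr14:54625236-54625265 (+), FOXN1-type core at -62: agcttctccacaGCGTCctcctcctcctcc
Psmb5, chr14:54618023-54618052 (-), NFE2L1-type site at -47: cgtgaagttgTGACGTCGCggcgttgccag
Psmb6, chr11:70525327-70525356 (+), NFE2L1-type site at -9: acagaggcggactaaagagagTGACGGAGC
Positions are those of the first base of the motif, counted back from the start. The searches read both strands for GACGC, TGACNNNGC and an IRF-type motif (GAAA, any 2 bases, GAAA) in the 250 bases before each start, and 36 of the 43 genes had such a window. The core GACGC, which is short, was in 14 of these 36 windows and in 22.7% of all 32536 windows. TGACNNNGC was in 5 of the 36 and in 10.2% of all windows. Psmb8 also holds GACGC, at -193. The IRF-type motif was in 3 of the 36 windows and in 3.0% of all windows, and not in those of Psmb8, Psmb9 or Psmb10. The windows of Psmb8, Psmb9 and Psmb11 lie inside the GENCODE spans of these genes, which have transcripts that start further upstream. Sequence before those starts was not searched, so a motif absent from a window may still lie upstream of the gene. These matches describe letters and not binding, which was not measured, and the letters do not tell which factor would bind.

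The values are FPKM, which are scaled for gene length and for the size of the library, so that levels can be compared between genes. They summed to 184608 to 241993 per library, and 10298 to 13661 genes reached 1 FPKM. The genes of the sorting markers were high in their sorts, though not all were exclusive to them. Pecam1 was at 321 ± 14.9 FPKM in Endo (SD, n = 6) and at no more than 3.60 elsewhere, and Epcam was at 306 ± 17.4 in cTEC and 472 ± 66.6 in mTEC. Enpep (Ly51) had means of 22.7 in cTEC, 2.0 in mTEC and 8.03 in CD146. Pdgfra (CD140a) was at 121 in CD140a and at no more than 3.33 elsewhere. Mcam (CD146) was at 131 in CD146 and 110 in Endo. The summed level of 12 thymocyte markers was 65.7 to 149 FPKM in cTEC, where all 12 reached 1 FPKM, and 1.28 to 16.4 in the other populations. A list of 9 myeloid, dendritic and B cell markers summed to 8.17 to 44.7 in mTEC, with the highest value in mTEC control 1, and to no more than 9.14 elsewhere. The list of 8 mTEC markers summed to 255 to 883 in cTEC and to 1071 to 2831 in mTEC. The list of 6 CD146 mesenchyme markers summed to 507 to 760 in mTEC and to 92.0 to 142 in cTEC, and its part in the differences between them was not tested. Endo Trap 2 stood apart from the other endothelial libraries: the mTEC list was at 248 there and at 33.1 to 104 in the other 5. In sorted bulk samples, fewer cells of a type and less RNA per cell cannot be told apart.

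Psmb11, on chromosome 14 (54621433 to 54629556, plus strand, GRCm38), was a transcript of the cortical epithelium. Its level was 29.24 and 48.35 FPKM in the control cTEC libraries and 32.73, 35.52, 37.47 and 24.27 in the Trap cTEC libraries. In mTEC it was 0.71 and 2.56 in controls and 0.23, 0.78, 0.95 and 0.17 in Trap. The highest value among the 18 other libraries was 0.74. Every cTEC library therefore lay far above every other library, and the ratio of the means was 38.4 between cTEC and mTEC. On the log2(FPKM + 1) scale cTEC exceeded mTEC by 4.22 ± 0.20 (SE, limma adjusted p = 3.68e-15). The differences of cTEC from CD140a, CD146 and Endo were 4.71 to 4.92. The low level in mTEC exceeded that in Endo by 0.70 ± 0.20 (adjusted p = 0.00485), that in CD140a by 0.70 ± 0.20 (adjusted p = 0.00502) and that in CD146 by 0.49 ± 0.20 (adjusted p = 0.0441). Of the 10 pairs of populations 7 passed for Psmb11, and 4 did without mTEC control 2, the library at 2.56 FPKM. Over all genes tested, the share passing per pair, in either direction, was 41.2% for cTEC with mTEC, 44.7% for cTEC with Endo, 41.6% for CD146 with cTEC, 43.9% for CD140a with cTEC, 57.8% for Endo with mTEC, 55.7% for CD146 with mTEC, 57.2% for CD140a with mTEC, 35.7% for CD146 with Endo, 41.0% for CD140a with Endo and 31.2% for CD140a with CD146.

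Psmb5, the constitutive counterpart of Psmb11, lies next to it on the opposite strand (54614119 to 54618022), with 3411 bases between the 2 gene starts in GENCODE. The motif positions of Psmb11 given above count from a RefSeq start further downstream, inside this GENCODE span. The level of Psmb5 was at least 14.84 FPKM in all 30 libraries. In cTEC it was 63.02 and 74.72 in controls and 57.7, 62.4, 60.53 and 55.67 in Trap. In mTEC it ran from 52.35 to 101.81 with a median of 68.05, and in Endo from 24.3 to 68.54 with a median of 52.54. The difference between cTEC and mTEC was -0.21 ± 0.27 (adjusted p = 0.578), and 3 of the 10 population pairs passed, all of them placing a mesenchymal sort below an epithelial one. Psmb5 thus overlapped between all 5 populations while its neighbour did not overlap between cTEC and any other. Across the 30 libraries the 2 genes' log2(FPKM + 1) values had a Pearson r of 0.313, given as a description.

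**Figure D1:**
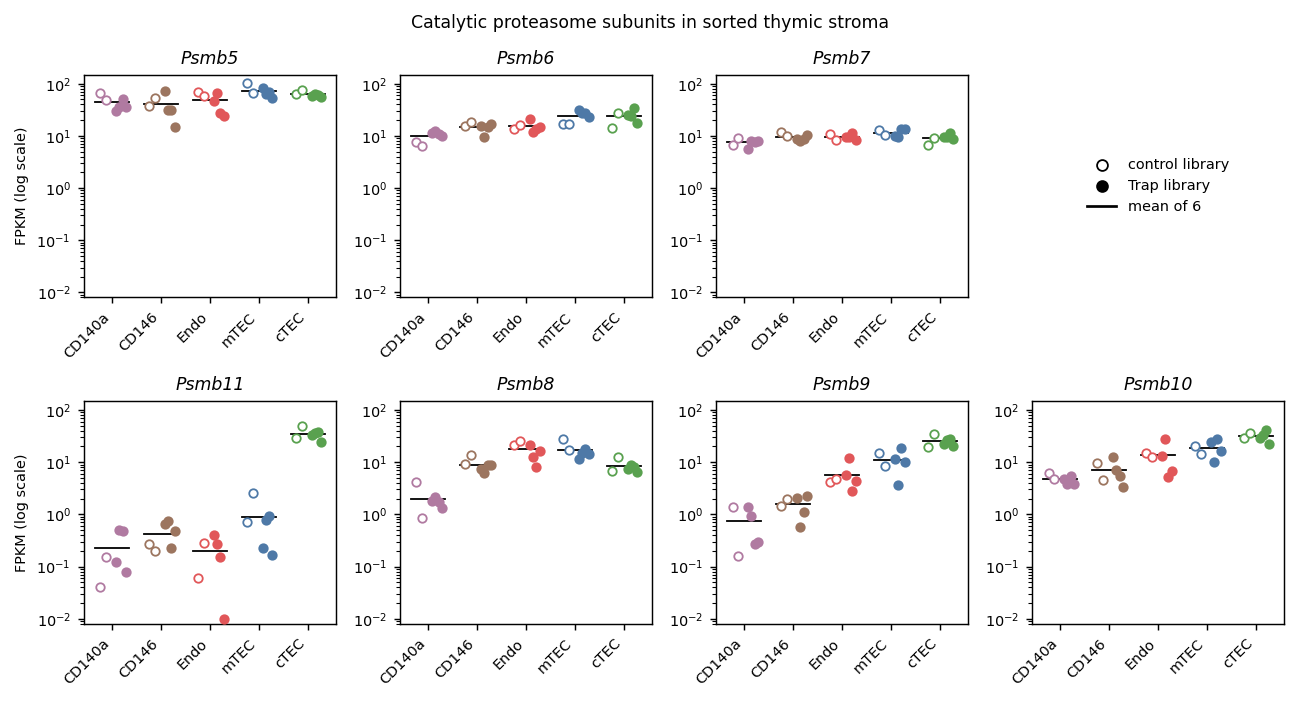
FPKM of the 7 catalytic subunit genes in each library on a log axis, by sorted population, with open circles for control and filled circles for Trap libraries and a bar at the mean of 6. Psmb11 sits at 24.27 to 48.35 in cTEC and at no more than 2.56 elsewhere, and Psmb8 is higher in Endo and mTEC than in cTEC.

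The interferon-inducible subunits did not share 1 pattern. Psmb9 (chromosome 17, 34181987 to 34187764, minus strand) was highest in cTEC, at 19.45 and 33.96 FPKM in controls and 22.32, 26.18, 27.59 and 20.62 in Trap. In mTEC it was 14.7 and 8.35 in controls and 11.54, 3.66, 18.78 and 10.08 in Trap, so that the 2 epithelial sorts did not overlap. In Endo it was 4.17 and 4.86 in controls and 5.64, 11.88, 2.75 and 4.36 in Trap. The CD146 libraries lay between 0.57 and 2.27 and the CD140a libraries between 0.16 and 1.39. The order cTEC, mTEC, Endo, CD146, CD140a held in 9 of the 10 pairs, and only the 2 mesenchymal sorts did not differ beyond their spread (-0.61 ± 0.33, adjusted p = 0.172). cTEC exceeded mTEC by 1.19 ± 0.33 (adjusted p = 0.00435), a ratio of 2.24.

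Psmb10 (chromosome 8, 105935735 to 105938444, minus strand) was also highest in cTEC, at 29.14 and 36.08 FPKM in controls and 29.2, 32.97, 41.4 and 22.27 in Trap. In mTEC it was 20.29 and 14.39 in controls and 24.15, 10.09, 27.93 and 16.39 in Trap, which overlaps with cTEC. The difference between them was 0.80 ± 0.33 (adjusted p = 0.0525), just short of the threshold. Psmb10 passed in this comparison under 6 of the 8 other settings (adjusted p from 0.0138 to 0.0417) and failed with a pseudocount of 0.1 (0.0685) and without a filter on low values (0.0601). It also passed when 1 of 10 libraries was left out, among them Endo Trap 2 (adjusted p = 0.0208). Endo ran from 5.25 to 28.23 with a median of 13.08, CD146 from 3.31 to 12.65 with 6.2, and CD140a from 3.75 to 6.24 with 4.745. Psmb9 and Psmb10 had an r of 0.924 over the 30 libraries.

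Psmb8, the β5i subunit, had another order. It lies 9957 bases from Psmb9 in the MHC region of chromosome 17 (34197721 to 34201454, plus strand). Its level in cTEC was 6.82 and 12.49 FPKM in controls and 7.56, 8.96, 8.0 and 6.38 in Trap. It was higher in mTEC, at 27.28 and 16.78 in controls and 11.69, 15.12, 17.56 and 14.08 in Trap. In Endo it was 21.31 and 25.17 in controls and 21.28, 12.65, 8.24 and 16.48 in Trap. The CD146 libraries lay between 6.15 and 13.8, and those of CD140a between 0.86 and 4.23, below every other library. cTEC was lower than mTEC by a difference of -0.98 ± 0.23 (adjusted p = 0.00116) and lower than Endo by -1.01 ± 0.23 (adjusted p = 0.000779). Endo and mTEC differed by 0.03 ± 0.23 (adjusted p = 0.933) and CD146 and cTEC by 0.13 ± 0.23 (adjusted p = 0.728), and the other 8 pairs passed.

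The constitutive β1 and β2 genes varied less. Psmb6 (chromosome 11, 70525367 to 70527858, plus strand) had a mean of 23.6 ± 7.10 FPKM in cTEC and 23.99 ± 5.79 in mTEC (SD, n = 6), with 15.2 in Endo, 15.1 in CD146 and 9.79 in CD140a. Its difference between cTEC and mTEC was 0.02 ± 0.17 (adjusted p = 0.956), and the 8 pairs other than this and CD146 with Endo passed. Psmb7 (chromosome 2, 38588036 to 38644087, minus strand) had means of 7.50 to 11.6 FPKM over the 5 populations, and 3 pairs passed. The ratio of the highest to the lowest population mean was 1.55 for Psmb7, 2.45 for Psmb6, 6.65 for Psmb10, 8.73 for Psmb8, 33.9 for Psmb9 and 176 for Psmb11.

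Since FPKM is per length, the genes that compete for 1 position in the ring were set against each other within a library. Psmb11 made up 28.12% to 35.67% of the summed β5 transcripts (Psmb5, Psmb8 and Psmb11) in the 6 cTEC libraries, with a mean of 32.6% ± 3.09 (SD, n = 6). Its mean share was 1.01% ± 1.02 in mTEC and 0.298% to 1.03% in the others. Psmb5 remained the larger part of the β5 transcripts in cTEC, at 59.6% ± 3.70. Psmb8 was 7.86% ± 0.825 of β5 in cTEC, and at 6.88% to 9.21% no cTEC library reached the mTEC range of 12.47% to 21.14%. Its share was 27.4% ± 8.39 in Endo, 20.4% ± 8.92 in CD146 and 4.26% ± 1.71 in CD140a.

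The β1i and β2i shares went the other way between the 2 epithelia. Psmb10 was 77.3% ± 3.30 of the β2 transcripts (Psmb7 and Psmb10) in cTEC and 60.6% ± 7.40 in mTEC, and the 6 cTEC libraries, at 71.95% to 81.01%, lay above the 6 mTEC libraries, at 51.24% to 70.43%. Psmb9 was 52.0% ± 4.98 of the β1 transcripts (Psmb6 and Psmb9) in cTEC, where it ran from 44.75% to 57.9%, and 31.4% ± 11.9 in mTEC, where it ran from 11.72% to 46.21%. In Endo the shares were 54.6% ± 15.0 for Psmb10 and 26.2% ± 11.99 for Psmb9. Endo Trap 2, which also carried epithelial transcripts, had the highest endothelial values of both, 74.7% and 50.11%. The share of Psmb10 was close to equal in the 2 mesenchymal sorts, at 39.1% ± 7.27 and 40.5% ± 12.4, and Psmb9 was at most 15.49% in each mesenchymal library. These are shares of transcripts and not of assembled particles, and no test was made on them.

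**Figure D2:**
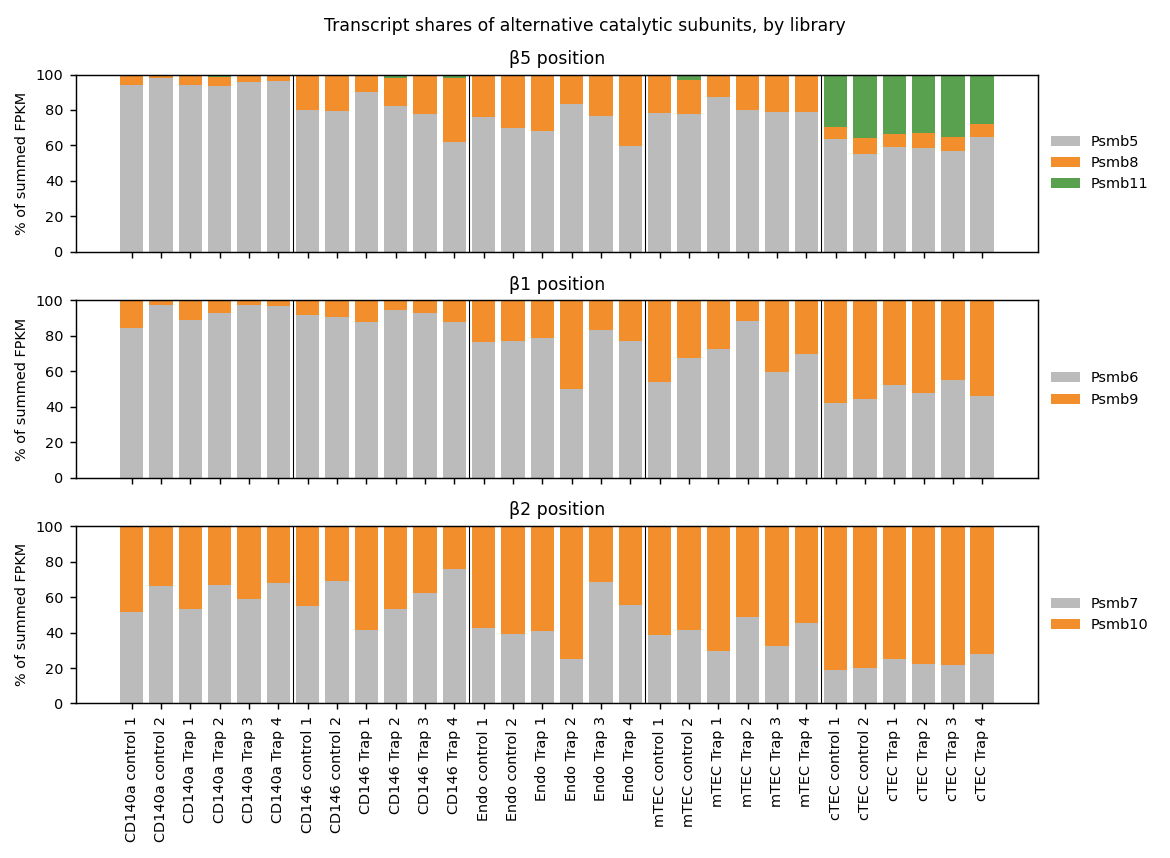
Share of summed FPKM (%) at the β5, β1 and β2 positions taken by each catalytic gene, 1 bar per library, grouped by population. The 6 cTEC bars hold 28.12% to 35.67% Psmb11 at β5 and 71.95% to 81.01% Psmb10 at β2, and Endo Trap 2 stands apart among endothelial libraries at β1 with 50.11% Psmb9.

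Thymocyte transcripts moved with the cTEC sort. Ptprc, which encodes CD45, was at 3.07 to 7.82 FPKM in cTEC and at no more than 1.14 in the other 24 libraries. cTEC Trap 4 had the highest summed thymocyte markers (149 FPKM) and, of the 6 cTEC libraries, the lowest Psmb10 (22.27) and Psmb11 (24.27). cTEC control 1 had the lowest marker sum (65.7) with Psmb9 at 19.45, Psmb10 at 29.14 and Psmb11 at 29.24. In cTEC Trap 3 the sum was 135, with the highest Psmb10 of the 6 libraries (41.4) and Psmb11 at 37.47. The part of thymocyte transcripts in the cTEC levels was not tested. Psmb9 and Tap1 overlap by 212 bases on opposite strands, and because it is not given whether the counting used strand, reads there cannot be told apart between them.

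Of the activator caps, Psme1 separated the 2 epithelia in the opposite sense to Psmb11. Psme1, which encodes PA28α (chromosome 14, 55578123 to 55581529, plus strand), was at 10.9 and 9.24 FPKM in the control cTEC libraries and at 6.48, 8.96, 7.4 and 9.2 in the Trap ones. In mTEC it was 86.78 and 62.16 in controls and 58.82, 54.41, 63.09 and 58.18 in Trap. The lowest value in any of the 24 libraries outside cTEC was 17.08, so that each of the 6 cTEC libraries lay below all others. cTEC was lower than mTEC by a log2 difference of -2.74 ± 0.14 (adjusted p = 5.82e-15), a ratio of 7.35 between the means. It was also lower than Endo (-2.004 ± 0.137, adjusted p = 1.75e-12), CD146 (by 1.502 ± 0.137, adjusted p = 6.02e-10) and CD140a (by 1.127 ± 0.137, adjusted p = 1.03e-07). All 10 pairs of populations passed for Psme1, though that of CD140a with CD146 failed under 3 of the other settings (the same upper quartile, quantile normalization, and only the libraries compared) and when 1 of 7 libraries was left out (CD140a control 2, Trap 1 or Trap 3, or CD146 control 1, control 2, Trap 1 or Trap 3).

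Psme2, the gene of the partner subunit PA28β, showed a like difference only when read as its own row. It was at 14.1 and 19.28 FPKM in control cTEC and 12.36, 14.38, 16.66 and 13.46 in Trap cTEC, against 67.65 and 46.14 in control mTEC and 42.91, 39.84, 42.93 and 32.82 in Trap mTEC. The difference was -1.56 ± 0.18 (adjusted p = 6.03e-08). Psme2 has an intronless copy, Psme2b, on chromosome 11 (outside the naming rule), and over 794 aligned bases the 2 transcripts were 99.4% identical, so that short reads can be split between them in a way the table does not show. Psme2b was listed at 103.3 ± 24.75 FPKM in cTEC, 53.6 ± 11.9 in mTEC and 234.5 ± 108.0 in Endo (SD, n = 6). With both summed per library, cTEC had 118 ± 24.6 and mTEC 99.0 ± 19.6, and the difference was 0.20 ± 0.20 (adjusted p = 0.478). The lower Psme2 of cTEC is therefore uncertain. That of Psme1, for which the table has no such copy, does not depend on this sum.

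Psme3 (PA28γ, a nuclear cap) was higher in mTEC, at 48.4 ± 3.75 FPKM, than in the other populations, whose means were 26.6 to 29.7. Its difference between cTEC and mTEC was -0.71 ± 0.13 (adjusted p = 8.73e-05). Psme4 (PA200) had its highest level outside the epithelium, at 67.0 ± 8.05 FPKM in CD146, where each library exceeded the highest value of every other population (56.08 against 55.86). The difference of Psme4 between cTEC and mTEC was 0.11 ± 0.09 (adjusted p = 0.338), but it passed as higher in cTEC with the same FPKM total (0.28, adjusted p = 0.0314) and with the same upper quartile (0.30, adjusted p = 0.0184). Its mean was 50.5 ± 4.23 in cTEC, 47.2 ± 5.22 in mTEC, 38.9 ± 4.53 in CD140a and 34.1 ± 2.63 in Endo.

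**Figure D3:**
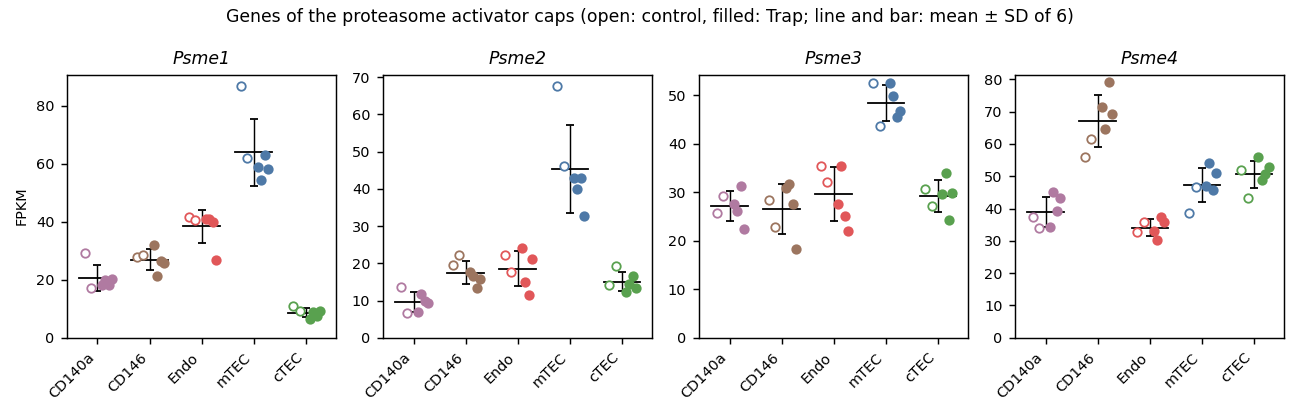
FPKM of the 4 activator cap genes in each library by population on linear axes from 0, with open circles for control, filled circles for Trap, and line and bar for the mean ± SD of 6. Psme1 in cTEC (6.48 to 10.9) lies below all other libraries, and Psme4 is highest in CD146.

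Across the whole set, cTEC and mTEC differed in few genes. Of the 42 members tested (Psma8 missed the filter), 4 were higher in cTEC, where 12.9% of all 16425 genes tested were, and 6 were lower, where 28.3% of all genes were. The median difference of the members was 0.02 against -0.17 over all genes. Besides Psmb11 and Psmb9, Psmb4 (the β7 subunit) was higher in cTEC by 0.63 ± 0.25 (adjusted p = 0.045) and Psmd4, which encodes the ubiquitin receptor RPN10, by 0.51 ± 0.17 (adjusted p = 0.0208). Besides Psme1, Psme2, Psmb8 and Psme3, those lower were Psma6 (the α1 subunit, -0.84 ± 0.18, adjusted p = 0.000517) and Psmb7 (-0.35 ± 0.14, adjusted p = 0.0415). Psma6 was at 78.3 ± 11.7 FPKM in cTEC and 135 ± 16.3 in mTEC (SD, n = 6). None of the 6 ATPases passed in this comparison by limma, and 1 of them had an unadjusted p under 0.05. Psmc6 was called higher in cTEC under the 3 scalings described next and without cTEC Trap 4, and is named after its values were seen.

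The count of members higher in cTEC depended on how libraries were scaled. It was 13 when each library was set to the same FPKM total, 15 with the same upper quartile and 10 after quantile normalization, where the median of all genes moved by 0.11, 0.13 and 0.28. Among the genes called in either direction, the share called higher went from 31.3% to 42.1%, 43.7% and 56.5%. Of the 16425 genes tested, 2116 were called higher in the main fit, and 2805, 2967 and 4003 under these scalings. Psmb7 missed the threshold under these 3 scalings, and Psmb4 did with a pseudocount of 0.1, without a filter and with the replicate number as a block (adjusted p of 0.0512, 0.052 and 0.0543). The others named, Psmb11, Psmb9, Psme1, Psmb8, Psma6 and Psme3, passed in the same direction under all 8 other settings. Leaving out 1 library ended the call of Psmb4 in 14 of 30 cases (difference 0.50 to 0.77), that of Psmb7 in 7 (-0.44 to -0.26) and that of Psmd4 in 3. The count of members higher fell to 2 without cTEC control 2 and rose to 7 without Endo Trap 2 and to 8 without cTEC Trap 4 or without mTEC Trap 3.

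Compared with the other stroma, the epithelium carried more transcript of nearly the whole particle. The mean of cTEC and mTEC was higher than that of Endo, CD140a and CD146 in 36 of the 42 members, where 40.5% of all genes tested were higher, and lower in 0, where 21.6% were. The median difference was 0.67 against 0.16 over all genes. An unadjusted p under 0.05 was found for 38 of the 42 members, a count given without the share of all genes and so not read as a result. The FPKM of all 43 members summed to 1347 ± 152 in cTEC and 1390 ± 99.9 in mTEC (SD, n = 6), against 876 ± 113 in Endo, 869 ± 48.0 in CD146 and 708 ± 31.0 in CD140a. Each of the 12 epithelial libraries (1117 or more) exceeded each of the 18 others (1005 or less). As a share of the library's FPKM total, the members made up 0.662% ± 0.065 in cTEC and 0.608% ± 0.027 in mTEC. The share was 0.447% ± 0.049 in Endo, 0.463% ± 0.019 in CD146 and 0.367% ± 0.015 in CD140a. By share, the mean of cTEC thus lay above that of mTEC, the reverse of the sums. Both epithelial means stayed above the others. No test was made on these sums or shares.

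The excess was found in the rings of the core and in the 19S cap. Of the 4 activator cap genes only 2 were higher in the epithelial mean, and both had their highest level in mTEC. All 7 genes of the α ring, which forms the gate of the core, were higher, with differences of 0.54 to 1.41. Psma1 differed most among them, by 1.41 ± 0.10 (adjusted p = 2.54e-12), with means of 38.2 FPKM in cTEC and 31.99 in mTEC against 10.95 to 14.4 in the other 3 populations. Psma7 followed with 1.37 ± 0.10 (adjusted p = 6.49e-12) and means of 45.4 in cTEC and 37.2 in mTEC against 13.15 to 19.04. All 4 non-catalytic β genes (0.60 to 0.95), all 6 ATPases of the 19S base (0.57 to 0.82) and 9 of the 11 non-ATPase genes (0.18 to 0.95 over all 11) were higher. Of the 3 chaperones that help to build the 19S base, 2 were higher, led by Psmd10 (gankyrin) with 1.36 ± 0.26 (adjusted p = 6.9e-05), although its endothelial libraries ran from 1.04 to 18.88 FPKM.

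Among the catalytic genes Psmb11, Psmb9 and Psmb10 differed most, whereas Psmb8 lay close to the constitutive Psmb6 and Psmb5. The differences were 2.74 ± 0.13 for Psmb11, 2.55 ± 0.21 for Psmb9 and 1.56 ± 0.21 for Psmb10. They were 0.73 ± 0.11 for Psmb6, 0.68 ± 0.15 for Psmb8 and 0.62 ± 0.17 for Psmb5, each with an adjusted p of 0.00326 or less. The value for Psmb8 averages over unlike populations. Its highest mean was in Endo (17.5 FPKM) and its lowest in CD140a (2.01), and cTEC lay below Endo and did not differ from CD146 beyond the spread. Psmb7 (0.15 ± 0.09, adjusted p = 0.137) did not pass. The other 5 members that did not pass were Psme1 (-0.17 ± 0.09), Psme4 (0.12 ± 0.06), Psmd9 (-0.05), Psmd8 (0.18) and Psmd3 (0.28), the last 3 of which are named as exceptions after their values were seen. Psme2 (0.83 ± 0.12) and Psme3 (0.42 ± 0.09) were higher, with their highest means in mTEC. The Psme2 row had a mean of 45.4 FPKM in mTEC but 15.0 in cTEC, below Endo (18.6) and CD146 (17.5). With Psme2b added, the difference was 0.79 ± 0.13, yet Endo (253) exceeded cTEC (118) and mTEC (99.0). The Psme3 mean of cTEC lay within the range of Endo, CD140a and CD146. With the same FPKM total, the same upper quartile and quantile normalization, 33, 33 and 32 members were higher and Psme1 was lower. Of the 16425 genes tested, 5575, 5796 and 4963 were then higher and 4455, 4243 and 5332 lower. The median of all genes moved by -0.12, -0.09 and -0.20.

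**Figure D4:**
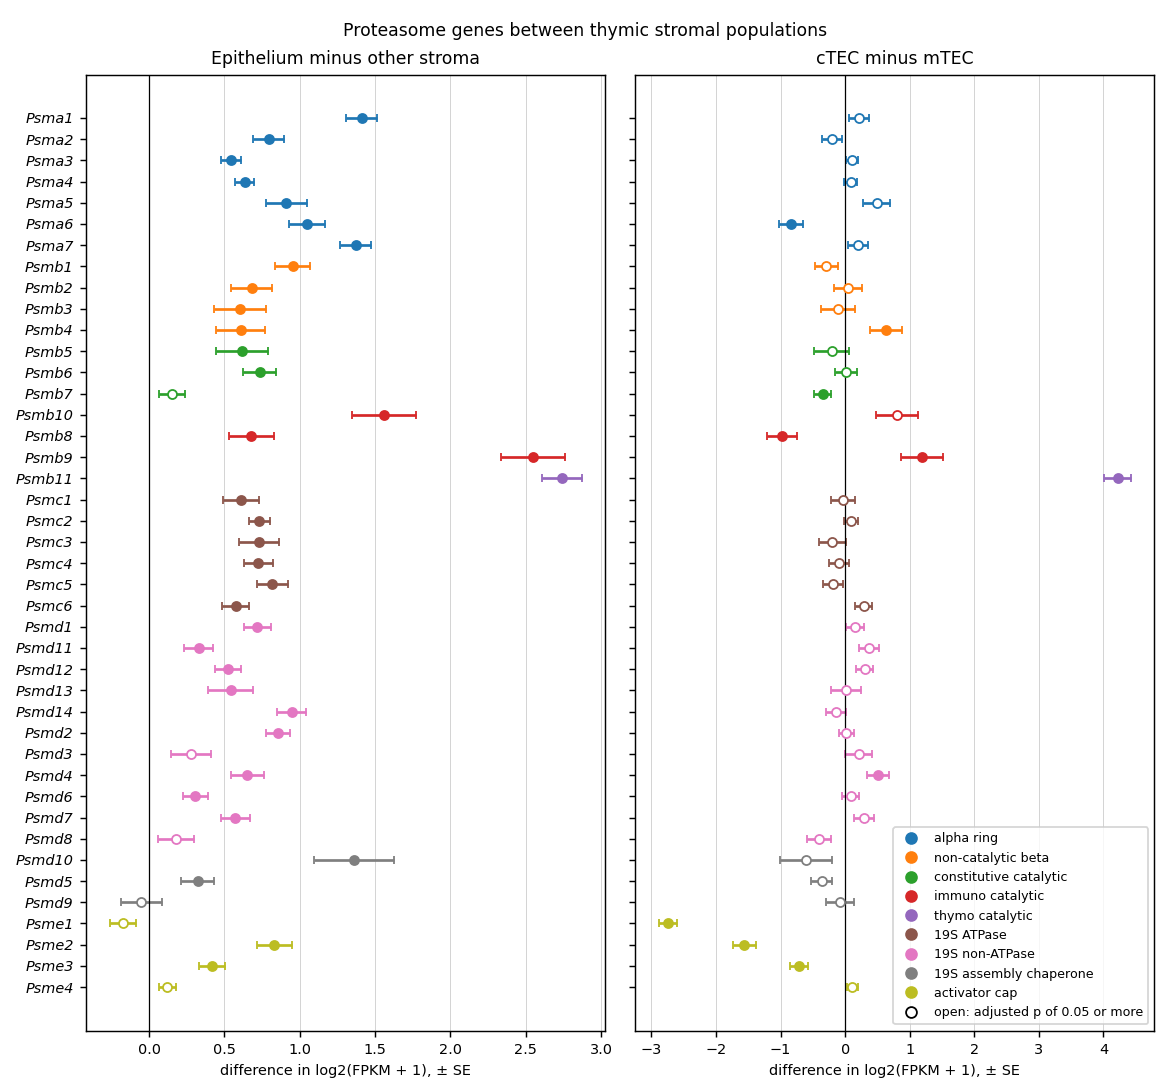
Difference in log2(FPKM + 1) ± SE for each of the 42 members tested, epithelium minus other stroma (left) and cTEC minus mTEC (right), coloured by class, with filled points where the adjusted p is under 0.05. On the left 36 members are filled and above 0, and on the right 4 are filled above 0 and 6 below, with Psmb11 and Psme1 at the ends.

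Within the other stroma, Psmb8, Psmb9 and Psmb10 were higher in endothelium than in the mean of the mesenchyme. Of the 42 members, 8 were higher in Endo than in the mean of CD140a and CD146 (18.5% of all genes tested were) and 1 was lower (22.8% of all genes were), with a median of 0.13 against -0.03 over all genes. Psmb8 was higher by 1.79 ± 0.20 (adjusted p = 3.04e-08), Psmb9 by 1.53 ± 0.28 (adjusted p = 6.47e-05) and Psmb10 by 0.99 ± 0.28 (adjusted p = 0.00579). Without Endo Trap 2, the library with epithelial transcripts, these were 1.81, 1.37 and 0.78 and all 3 passed. Against CD146 alone, Psmb8 and Psmb9 passed and Psmb10 did not (CD146 minus Endo -0.81 ± 0.33, adjusted p = 0.0544). Psme1 was higher by 0.69 ± 0.12 (adjusted p = 2.54e-05), Psma7 by 0.51 ± 0.14 (adjusted p = 0.00389) and Psmc1, an ATPase, by 0.50 ± 0.16 (adjusted p = 0.0124), a call that was lost without Endo control 1 and with quantile normalization. Psme2 was higher by 0.47 ± 0.16 (adjusted p = 0.0177) as its own row (a call lost with 1 weight per population, with only the libraries compared, without CD140a control 2 and without Endo control 1) and by 2.99 ± 0.18 (adjusted p = 1.05e-13) with Psme2b added. Psme4 was the 1 lower gene (-0.53 ± 0.08, adjusted p = 2.52e-06). Psmb5 (0.22 ± 0.23), Psmb6 (0.34 ± 0.15), Psmb7 (0.13 ± 0.12) and Psmb11 (-0.11 ± 0.18) did not pass, and no non-ATPase gene of the 19S cap passed by limma or had an unadjusted p under 0.05.

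The CD140a-positive mesenchyme held the lowest population mean for 29 of the 42 members. How often it did so over all genes tested was not counted, so the number is not read as a result. Against CD146, 14 members were lower (17.7% of all genes tested were) and 0 were higher (13.5% of all genes were), with a median of -0.36 against -0.04 over all genes. The largest difference was that of Psmb8, -1.82 ± 0.23 (adjusted p = 5e-07), from a mean of 8.99 ± 2.61 FPKM in CD146 to 2.01 ± 1.17 in CD140a. Then came Psme2 (-0.88 ± 0.18, adjusted p = 0.000372), Psme4 (-0.75 ± 0.09, adjusted p = 1.41e-07), Psmb6 (-0.73 ± 0.17, adjusted p = 0.00145), the ATPase Psmc4 (-0.59 ± 0.15, adjusted p = 0.00331) and Psmd11 (-0.54 ± 0.15, adjusted p = 0.00638). Psmc4 did not pass without CD140a control 2 (-0.44, adjusted p = 0.0558), nor Psmd11 without CD140a control 1 (-0.45, adjusted p = 0.0591). Psme1 (-0.37 ± 0.14) and Psmb7 (-0.36 ± 0.14) passed with adjusted p of 0.038 and 0.0464, and both calls were lost with the same upper quartile and with quantile normalization. Leaving out 1 library ended that of Psme1 in 7 of 30 cases and that of Psmb7 in 11. Psmb5 (0.27 ± 0.27), Psmb9 (-0.61 ± 0.33), Psmb10 (-0.36 ± 0.33) and Psmb11 (-0.20 ± 0.20) did not pass. Without CD140a control 1, the CD140a library with the highest Psmb8 (4.23 FPKM) and Psme1 (29.32 FPKM), 9 members were lower in place of 14.

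Genes that build and regulate the particle moved with it only in part. Of a list of 22 chaperones, cofactors and transcription factors, 20 were in the table, and 13 of them were higher and 2 lower in epithelium, where 40.5% and 21.6% of all genes were. Psmg4, an assembly chaperone of the α ring, was higher by 1.56 ± 0.30, the deubiquitinase Uchl5 by 0.96 ± 0.15, the β ring chaperone Pomp by 0.85 ± 0.16 and the factor Nfe2l1 by 0.75 ± 0.07. Nfe2l1 had means of 55.6 FPKM in cTEC and 63.1 in mTEC, against 49.2 in Endo, 36.5 in CD146 and 25.4 in CD140a. Of those lower, Nfe2l2, the NRF2 factor, differed by -0.49 ± 0.08. Between cTEC and mTEC 2 were higher (Txnl1 0.44, Nfe2l2 0.38) and 1 lower (Sem1 -0.46), where 12.9% and 28.3% of all genes were, the median being -0.07 against -0.17 over all genes. In Endo against mesenchyme 7 were higher and 0 lower (18.5% and 22.8% of all genes), led by Ddi2, the protease that activates NFE2L1 (1.43 ± 0.12, means of 21.7 FPKM in Endo, 8.37 in CD146 and 7.12 in CD140a). In CD140a against CD146 4 were lower (Usp14, Adrm1, Nfe2l1, Sem1), close to the 17.7% of all genes, and 0 higher, where 13.5% of all genes were.

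The list of 16 interferon and MHC class I genes gave values to set beside Psmb8, Psmb9 and Psmb10. In epithelium 13 were higher and 2 lower, where 40.5% and 21.6% of all genes were, among them the class I heavy chains H2-K1 (2.50 ± 0.09) and H2-D1 (1.66 ± 0.09) above and the factor Irf1 (-0.37 ± 0.12) below. Between the epithelia 3 were higher in cTEC (12.9% of all genes were), including Irf1 by 1.33 ± 0.18 and the peptide transporter Tap1 by 0.79 ± 0.14. Those lower in cTEC were 7 (28.3% of all genes were), including B2m, the class I light chain (-1.53 ± 0.11), the receptor Ifngr2 (-1.42 ± 0.17), H2-D1 (-0.99 ± 0.13) and Calr (-0.99 ± 0.11). Nlrc5, the transactivator of class I genes, was at 11.6 ± 1.89 FPKM in cTEC and 22.1 ± 1.89 in mTEC (SD, n = 6), and is named here after its values were seen. In Endo against mesenchyme 12 were higher and 0 lower, where 18.5% and 22.8% of all genes were, including H2-K1 (2.41), H2-D1 (2.05) and Nlrc5 (1.97). In CD140a against CD146 10 were lower, led by Nlrc5 (-2.48 ± 0.15) and Tap1 (-1.56 ± 0.14), and 3 higher, where 17.7% and 13.5% of all genes were. Tap1, the neighbour of Psmb9, was at 28.4 ± 3.91 FPKM in cTEC, 23.1 ± 2.90 in Endo, 15.5 ± 2.72 in mTEC, 13.6 ± 2.51 in CD146 and 3.80 ± 0.743 in CD140a, so that the Endo mean lay above that of mTEC for Tap1 and below it for Psmb9.

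Psma8, which replaces the α4 subunit in the testis proteasome, was near 0. Its highest value was 0.8 FPKM, in a CD146 library, and it failed the filter of 1 FPKM in at least 2 libraries. Its mean was 0.31 in CD140a, 0.28 in CD146, 0.11 in Endo and 0.04 or less in the epithelium.

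VEGF-Trap changed no proteasome gene past the threshold. The comparison addresses what VEGF does in the newborn thymic stroma. Of the 42 members, 0 passed by limma in each of the 5 populations. Over all genes tested, 1.74% passed in Endo, 0.347% in mTEC, 0.0183% in CD146, 0.00609% in cTEC and 0.0% in CD140a. At an unadjusted p under 0.05 the numbers of members were 5 in Endo, 3 in mTEC, 2 in CD146, 2 in CD140a and 0 in cTEC. The share of all genes under that unadjusted threshold is not given here, so these counts are not read as a result. The control and Trap values did not overlap for 9 members in Endo, 7 in mTEC, 7 in CD146, 5 in cTEC and 5 in CD140a. Over all genes tested, 14.8% did not overlap in Endo, 13.5% in mTEC, 12.6% in CD146, 13.5% in cTEC and 11.9% in CD140a. The counts in CD140a and cTEC were at this background. Those in Endo, mTEC and CD146 were not far above it, which was not tested, and are not read as a result. The tests of whether the Trap change differed between cTEC and mTEC, or between Endo and the mean of the other 4, called 0 members. At the adjusted threshold 0.0791% and 0.28% of all genes passed. At an unadjusted p under 0.05 there were 0 and 5 members, again without a share of all genes beside them.

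The thymoproteasome gene itself overlapped between treatments in cTEC. Psmb11 was at 38.8 ± 13.5 FPKM in the 2 control libraries and 32.5 ± 5.82 in the 4 Trap libraries, a difference of -0.22 ± 0.29 (adjusted p = 1.0), and its share of β5 was 32.6% and 32.5%. The direction rests on cTEC control 2: without it the difference was 0.13. In mTEC it was -0.72 ± 0.29 (adjusted p = 0.509). Psmb8 in Endo was at 21.31 and 25.17 in controls, above the 4 Trap libraries by a narrow margin (highest 21.28), and the difference was -0.70 ± 0.33 (adjusted p = 0.318). In mTEC it was -0.54 ± 0.33, which did not pass. Psmb5 in Endo differed by -0.73 ± 0.38 (adjusted p = 0.383). The lowest adjusted p among members in Endo were those of Psmc4 (-0.74 ± 0.21, adjusted p = 0.073) and Psma4 (-0.49 ± 0.14, adjusted p = 0.076), named after their values were seen. Without Endo Trap 1 both passed. Psmb9 in Endo was 4.17 and 4.86 in controls and 2.75 to 11.88 in Trap. Psme2 with Psme2b added differed in Endo by -0.95 ± 0.29 (adjusted p = 0.0948).

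**Figure D5:**
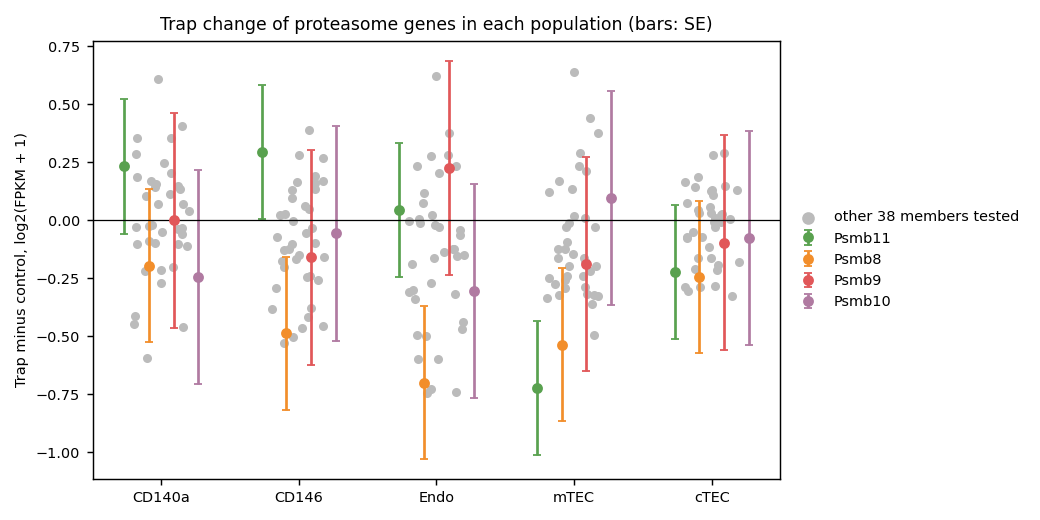
Trap minus control difference in log2(FPKM + 1) for the 42 members tested in each population, with SE bars for Psmb11, Psmb8, Psmb9 and Psmb10 in colour and the other 38 members in grey. The values lie between -0.74 and 0.64, and 0 of them has an adjusted p under 0.05.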

How the data were processed

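Of each sorted population, 2 control and 4 Trap libraries were used. Per the labels' protocols, RNA was extracted, amplified as cDNA and sequenced as read pairs. Per the submitters' processing notes, bcl2fastq 2.17, STAR and DESeq2 were used with the builds GRCm38 and mm10; what each did, the annotation, the handling of reads that match several genes and the use of strand were not given in the sources used here. Values were deposited by the authors as FPKM for 18847 genes at 2 decimals. With 9 distinct values between 0 and 0.1, steps of single reads cannot be resolved, so that depth is unknown and no counting interval is given. No library was a copy of another, and libraries of a group correlated at 0.888 to 0.98. Of the symbols, 27 had become dates and were restored through their Ensembl identifiers, and coordinates are from GENCODE M21.

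Differences were tested with limma 3.58.1 (R 4.3.3) on log2(FPKM + 1), which understates changes of low genes, over 16425 genes that reached 1 FPKM in at least 2 libraries. The fit had a mean for each of 10 groups over all 30 libraries, a trended prior and Benjamini-Hochberg adjustment over all genes tested, with a threshold of 0.05. A population's mean was the average of its control and Trap group means, and ratios are of mean FPKM over 6 libraries. The fit was tested on simulated data. The members, the lists of pathway and marker genes and the comparisons were chosen with earlier results of these data known. Named with values are the 7 catalytic genes, Psma8, Psme1 to Psme4, and up to 6 called members of largest difference per direction and contrast, with up to 4 per direction from each list. Some genes of the lists are counted but not reported by name here. Other pseudocounts, filters, scalings, weights and library sets were tried. Upstream sequence is from RefSeq (GRCm38.p6), where GENCODE also has transcripts of Psmb8, Psmb9 and Psmb11 that start further upstream.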

Additional observations from a re-analysis of the deposited data

Results flagged for a closer look

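Among 75 groups of 4 Trap libraries examined, made of the 7 catalytic and 4 activator cap genes and 4 transcript shares in 5 populations, 2 held a library whose gap to the nearest other exceeded the 95% critical value of Dixon's test. Chance flags about 1 in 20 groups. Psmb7 in CD140a Trap 1 was at 5.53 FPKM, below the 7.72 to 8.02 of the other 3 Trap libraries. Psme1 in Endo Trap 4 was at 26.92 FPKM, below 39.98 to 40.98 in the other 3.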

How the results depend on the processing

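A total of 8 other settings and the omission of each of the 30 libraries were tried. Depth is unknown, and 2 control libraries per population limit what the Trap comparisons can detect. Members lower in epithelium were 1 in place of 0 with no filter on low values (Psma8) and under each of the 3 scalings (Psme1). Members higher in cTEC than mTEC were 13 with the same FPKM total, 15 with the same upper quartile, 10 with quantile normalization, 8 with 1 weight per population and 7 with only the libraries of the populations compared. In CD140a against CD146, 1 was higher with the same upper quartile, with weights and with only those libraries. Pairs passed went from 3 to 1 for Psmb5 with the same total and with quantile normalization, from 8 to 5 for Psmb6 with the same total, from 3 to 0 for Psmb7 with the same upper quartile and with quantile normalization, and from 7 to 4 for Psmb11 with quantile normalization. The Psmb11 share in Endo was 0.746% in place of 0.298% with quantile normalization. Psme4 in epithelium turned to -0.04, -0.0038 and -0.0038 under the 3 scalings, and Psme2 between cTEC and mTEC to 0.20 when summed with Psme2b, an alternative chosen after seeing the data. The cause was not tested.

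With 1 library left out, members in epithelium were 36 to 37 higher and 0 to 1 lower, in cTEC against mTEC 2 to 8 higher and 5 to 7 lower, in Endo against mesenchyme 6 to 11 higher and 1 to 3 lower, and in CD140a against CD146 0 to 1 higher and 9 to 17 lower. Trap called 0 to 2 members in Endo and 0 in the other 4 populations and in both tests of a difference. Pairs passed were 4 to 7 for Psmb11, 1 to 4 for Psmb7, 2 to 4 for Psmb5, 6 to 8 for Psmb6, 6 to 8 for Psmb10, 8 for Psmb8 and 8 to 9 for Psmb9. Psmb6 between cTEC and mTEC ran from -0.21 to 0.24, turning to -0.21 without cTEC control 2, -0.06 without cTEC Trap 3 and -0.02 without mTEC Trap 4, and the Trap difference of Psmb11 in cTEC ran from -0.58 without cTEC control 1 to 0.13 without cTEC control 2.

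Whether same-numbered libraries share animals is not stated. Correlations of their deviations cannot decide it, because low values do not exclude shared animals. Of 40 pairs of same-numbered Trap libraries from different populations, 1 had correlated deviations above 0.1, and of 20 control pairs 0 did. The median r was 0.022 for same-numbered Trap pairs and -0.008 for Trap pairs of other numbers. For control pairs it was 0.032 and -0.032, values that mirror each other and add little. With the replicate number as a block, members were 36 higher and 0 lower in epithelium, 4 and 6 in cTEC against mTEC (Psmb10 in place of Psmb4), 8 and 1 in Endo against mesenchyme, and 0 and 15 in CD140a against CD146.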

Other observations

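Genes outside the proteasome set were ranked by how closely their levels followed Psmb11 over the 30 libraries. The members, and symbols that are only identifiers, were left out before the ranking. By Pearson r of log2(FPKM + 1), among genes with a population mean of at least 5 FPKM, the closest 8 were Syngr1 (0.983), Tmem169 (0.975), Grap2 (0.974), Snhg11 (0.972), Kcnk2 (0.972), Atp7b (0.968), Prr32 (0.965) and Cdh4 (0.965). Syngr1, a vesicle membrane protein gene, had means of 10.9 FPKM in cTEC, 0.342 in mTEC and at most 0.055 in the others. Cdh4, which encodes R-cadherin, had 53.9 in cTEC and at most 3.34 elsewhere. The 30 points fall into cTEC and the rest, so that r mostly restates that these genes are high in cTEC, and it is given as a description. Closest to Psmb8 were Nlrc5 (0.911), Cdc42ep3 (0.905) and Pkm (0.888).

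Psme2b, the near copy of Psme2, was higher in Endo than in mesenchyme by 3.64 ± 0.21 on the log2 scale (limma adjusted p = 7.27e-14). Its annotated position on chromosome 11 (48945354 to 48946190, GRCm38) overlaps the end of 9930111J21Rik1, a gene at 33.6 ± 6.51 FPKM in Endo, 15.4 ± 2.41 in cTEC, 4.29 ± 2.10 in mTEC and at most 1.81 ± 0.826 in mesenchyme (SD, n = 6). What part of the reads at this position belongs to which gene was not tested.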
